A study of Mus musculus with 12 samples.

Results

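The genes described are 7 ligands of the epidermal growth factor (EGF) family, Areg, Ereg, Hbegf, Tgfa, Btc, Epgn and Nrg1, and 3 receptors of the ERBB family, Egfr, Erbb2 and Erbb3. They were taken by name from the deposited gene tables, and these 10 genes stand among 26244 genes listed in at least 1 of the tables. The 12 RNA sequencing libraries, in 4 groups of 3, were made from 4T1 cells, an established line from a mammary carcinoma of a mouse. In the lung groups, 5000 4T1 cells labelled with the green fluorescent protein mNeonGreen were given to Balb/c mice through a tail vein, and after 4 weeks 100000 4T1 cells per library were sorted from the lungs. The groups are called lung young and lung old after the age label of the host mice, whose ages in weeks or months are not given in the sources used here. In the culture groups, called culture young and culture old, 4T1 cells were kept for 72 h without serum in medium with 25% interstitial fluid extract (IFE), a fluid taken from lungs of young or old mice that carried 4T1 metastases. The titles of the culture libraries also carry the abbreviation shNT, which the labels do not explain. All libraries come from 1 cell line. The labels do not say whether the 3 libraries of a group come from separate mice, separate IFE preparations or separate cultures, so the p-values below measure the spread between these libraries, which may be technical.

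EGF family ligands are made as membrane-anchored precursors that are cut free by proteases of the ADAM family, mainly ADAM17, and act on the cell that made them or on neighbours. Amphiregulin (Areg), transforming growth factor alpha (Tgfa) and epigen (Epgn) bind the EGF receptor, heparin-binding EGF (Hbegf), betacellulin (Btc) and epiregulin (Ereg) bind the EGF receptor and ERBB4, and neuregulin 1 (Nrg1) binds ERBB3 and ERBB4. ERBB2 has no known ligand and signals as the partner of the other receptors, and ERBB3 has a weak kinase and depends on such a partner. In the mammary gland, amphiregulin is the EGF receptor ligand through which oestrogen drives duct growth.

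Libraries held 11679046 to 15053144 counts in the lung groups and 12299004 to 18129164 in the culture groups. The labelled cell type was checked with 7 epithelial genes, Krt8, Krt18, Krt7, Krt19, Epcam, Cdh1 and Cldn4. They were detected in all 4 groups and summed to between 2213 and 4435 CPM (counts scaled to the same library total) in a library. Such genes mark epithelium and cannot tell 4T1 cells from epithelium of the host lung. Markers of other cells were present in the lung libraries and differed between the ages. The 20 macrophage and monocyte markers summed to 2152 to 2229 CPM in lung young and 292.3 to 308.8 CPM in lung old libraries, with none of them at 0 in either group, and all 19 that were tested fell. The 10 markers of alveolar and airway epithelium summed to 32.4 to 35.2 CPM in lung young and 85.8 to 95.6 CPM in lung old, and 6 of them rose. In culture, the 9 macrophage markers with a value summed to 19.3 to 25.6 CPM, with Itgam at 0 in culture old. In other marker lists, 1 was higher and 2 lower of 8 neutrophil markers tested, and 2 were higher of 7 endothelial markers. All 6 fibroblast and pericyte markers tested were called, 4 higher and 2 lower. Of the T, NK and B cell markers, 0 of 1 tested was called (adjusted p = 0.36 for Cd3e, edgeR). Over all genes tested, 40.0% were called in the lung. The fibroblast and pericyte markers summed to 333.7 to 358.4 CPM in lung young, 418.5 to 427.9 in lung old and 16.5 to 21.4 in culture. The neutrophil markers summed to 225.0 to 241.0 CPM in lung young and 417.0 to 424.7 in lung old, mostly from Mmp9 (167 and 366 CPM). Mmp9 was the 1 neutrophil marker called higher, and it also stood at 117 CPM in culture young and 169 in culture old. The 2 called lower from lung young to lung old were Csf3r (14.3 to 6.65 CPM) and Mmp8 (3.62 to 2.18 CPM). The other 5 tested did not pass. One library, culture old replicate 3, stood apart from the other libraries of its group. The chi-square of its counts against each of them was 9.43 and 8.18 per degree of freedom, against 2.17 to 3.43 for every other pair of libraries of 1 group.

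Epgn, Ereg, Areg and Btc lie together on chromosome 5 within 376 kb, from 91175323 to 91550853 in the coordinates of the files, whose build is not given. Areg (ENSMUSG00000029378) spans 91287458 to 91296291 on the plus strand, and Btc (ENSMUSG00000082361) spans 91505120 to 91550853 on the minus strand. The other members lie on chromosomes 6 (Tgfa), 8 (Nrg1), 10 (Erbb3), 11 (Egfr and Erbb2) and 18 (Hbegf). RefSeq promoters, from 250 bases before to 50 bases after an annotated start on GRCm38.p6, were at hand for 6 of the members, Areg, Btc, Epgn, Tgfa, Egfr and Erbb2. The promoters of 3 genes of the chromosome 5 cluster are shown because their levels differed most between the settings, Areg and Epgn being higher in lung libraries and Btc in culture. They are chr5:91139349-91139648 (plus strand) for Areg, chr5:91027267-91027566 (plus strand) for Epgn and chr5:91402945-91403244 (minus strand) for Btc, and capitals mark a match to 1 of the motifs searched.

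Areg: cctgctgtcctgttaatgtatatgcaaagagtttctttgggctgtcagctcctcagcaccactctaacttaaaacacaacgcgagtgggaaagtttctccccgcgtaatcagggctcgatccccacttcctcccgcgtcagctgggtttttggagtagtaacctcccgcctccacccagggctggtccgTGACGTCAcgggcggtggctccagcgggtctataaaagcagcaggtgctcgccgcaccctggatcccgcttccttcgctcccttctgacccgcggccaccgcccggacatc

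Epgn: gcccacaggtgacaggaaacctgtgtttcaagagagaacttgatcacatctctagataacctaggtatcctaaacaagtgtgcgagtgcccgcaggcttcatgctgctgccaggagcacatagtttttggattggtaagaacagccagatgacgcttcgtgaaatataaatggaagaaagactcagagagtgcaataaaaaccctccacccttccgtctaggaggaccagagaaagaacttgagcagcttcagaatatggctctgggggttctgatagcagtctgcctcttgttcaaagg

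Btc: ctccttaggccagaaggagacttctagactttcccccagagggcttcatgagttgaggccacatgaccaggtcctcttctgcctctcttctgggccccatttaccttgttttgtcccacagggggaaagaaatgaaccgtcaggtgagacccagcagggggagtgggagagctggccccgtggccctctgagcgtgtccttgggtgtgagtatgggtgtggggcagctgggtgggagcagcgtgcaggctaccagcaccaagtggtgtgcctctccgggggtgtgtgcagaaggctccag

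The motifs were searched on both strands. They were the AP-1 motif TGANTCA, the cyclic AMP response element (CRE) TGACGTCA, the TEAD motif GGAATG, the palindromic glucocorticoid response element and the NF-kB motif. The Areg window held 1 CRE, whose first base lies at position -61 from the start, and no other match. A CRE was present in 1.79% of 32851 promoters of the same length. The Epgn, Btc, Tgfa and Egfr windows held none of the 5 motifs. Erbb2 held 1 TEAD motif at position -88, which 14.7% of all promoters hold, against 7.81% for AP-1, 0.475% for the glucocorticoid response element and 0.411% for NF-kB. A match describes these letters and is not evidence of binding.

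Levels of the ligands were compared with one another per length, as the authors' FPKM (fragments scaled by gene length and by library total). Areg, Hbegf and Tgfa made up nearly all of the summed ligand level in every group. In lung young libraries Areg stood at 165 ± 1.49 FPKM (SD, n = 3), Hbegf at 72.3 ± 0.476 and Tgfa at 22.5 ± 0.305, which were 62.9%, 27.5% and 8.58% of the ligand sum. The other 4 ligands stood far below these, at 1.53 ± 0.148 FPKM for Epgn, 0.619 ± 0.0211 for Nrg1, 0.475 ± 0.0294 for Ereg and 0.142 ± 0.0291 for Btc. In culture young libraries the same order held for the leading 3, but the shares were closer, with 42.1% ± 0.69 for Areg, 35.7% ± 1.47 for Hbegf and 16.1% ± 0.24 for Tgfa (SD, n = 3). In culture old libraries the shares of Areg and Hbegf were 40.0% ± 3.15 and 38.6% ± 3.43, which lie within 1 SD of each other. This closeness came from old replicate 3, with 36.4% for Areg and 42.5% for Hbegf, whereas replicate 1 had 42.1% and 37.3% and replicate 2 had 41.5% and 36.0%. The ligand sum was 263 ± 1.89 FPKM in lung young, 233 ± 1.61 in lung old, 72.1 ± 3.03 in culture young and 76.6 ± 9.14 in culture old. The sum in culture leaves out Ereg, which was not analysed there, and the FPKM tables of lung and culture were normalized separately.

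Among the receptors, Erbb2 had the highest level per length in all 4 groups, at 9.90 ± 0.502 FPKM in lung young, 10.1 ± 0.569 in lung old, 9.59 ± 0.346 in culture young and 10.0 ± 0.863 in culture old (SD, n = 3 each). Erbb3 came next, with 12.9% ± 0.579 of the receptor sum in lung young, 18.3% ± 1.44 in lung old, 32.4% ± 0.963 in culture young and 30.8% ± 2.1 in culture old. Egfr had the smallest part, from 3.7% ± 0.748 in culture young to 8.48% ± 1.05 in lung old. The receptor mixture thus held a larger part of Erbb3 in culture and a larger part of Egfr in the lung.

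**Figure D1:**
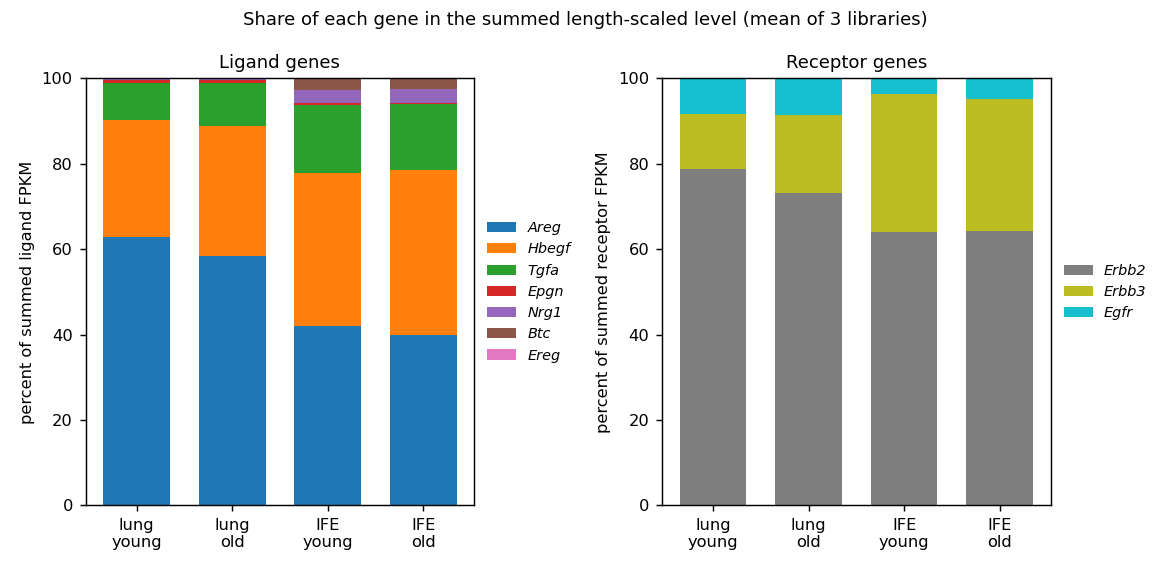
Stacked bars of the share of each gene in the summed FPKM of the 7 ligand genes (left) and of the 3 receptor genes (right), as the mean of 3 libraries in each of the 4 groups (lung young, lung old, culture with young IFE, culture with old IFE). Areg takes 62.9% of the ligand sum in lung young and 42.1% in culture young, and Erbb3 takes 12.9% and 32.4% of the receptor sum in the same groups; Ereg has no value in culture.

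The first comparison asked which of these genes differed between 4T1 cells from old and from young lungs. Levels are from here on CPM, and a call is an adjusted p under 0.05 in edgeR's quasi-likelihood test over all genes of the setting. Areg fell and Erbb3 rose in lung old libraries, and the other 8 members did not pass the test. Thus 2 of the 10 members were called, 1 higher and 1 lower, whereas 40.0% of all 14096 genes tested were called, 19.6% higher and 20.4% lower. The median log2 fold change was 0.03 for the 10 members and 0.00 (0.00188) for all genes.

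Areg, the amphiregulin gene, stood at 222.6, 223.5 and 226.9 CPM in the lung young libraries and at 187.2, 182.6 and 183.3 CPM in the lung old libraries. Every old library lay below every young one. The log2 fold change was -0.27 ± 0.033 (SE), with a 95% interval of -0.34 to -0.21, so the level in old libraries was 0.829 of that in young ones (adjusted p = 1.76e-11, edgeR). The call was made with each of the 6 libraries left out in turn (log2 fold change from -0.28 to -0.26). It was not made against a fold of 1.2 (adjusted p = 0.649, edgeR), since the change is of about that size. In the same libraries the macrophage markers given above fell, and their part in the change of Areg was not tested. In such bulk libraries, fewer cells of a type and less RNA per cell cannot be told apart.

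Erbb3, the neuregulin receptor (ENSMUSG00000018166, chromosome 10, 128403392 to 128425521), stood at 10.2, 11.4 and 11.0 CPM in lung young and at 16.8, 16.2 and 17.7 CPM in lung old libraries. All 3 old libraries lay above all 3 young ones. It rose 1.57-fold (95% interval 1.33 to 1.85, log2 fold change 0.65 ± 0.12, adjusted p = 3.99e-06, edgeR). With 1 library left out the log2 fold change ran from 0.61 to 0.68 with the call kept each time, and it was also called against a fold of 1.2. Counts of Erbb3 ran from 135 to 234 per library in the lung groups. In the same libraries 6 of the 7 epithelial genes of the 4T1 label rose and 1 fell, and the alveolar and airway markers rose as given above. Their part in the change of Erbb3 was not tested.

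Among the ligands that did not pass, Hbegf was measured most precisely. It stood at 391.3, 388.3 and 392.8 CPM in lung young and at 371.5, 384.1 and 384.2 CPM in lung old. The groups did not overlap, but the difference was small, with a log2 fold change of -0.03 and a 95% interval of -0.08 to 0.02 (adjusted p = 0.434, edgeR). Tgfa stood at 164.6, 161.3 and 165.1 CPM in lung young and 172.1, 171.5 and 164.8 CPM in lung old, with groups that overlapped and an interval of -0.01 to 0.13 (adjusted p = 0.159, edgeR). For these 2 abundant ligands the intervals leave out a change as large as that of Areg.

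The rare ligands gave wider intervals. Ereg had 31, 31 and 32 counts in lung young and 20, 26 and 16 in lung old, so every old library was lower in CPM, but the log2 fold change of -0.43 had an interval of -1.10 to 0.23 (adjusted p = 0.319, edgeR). Epgn had 37, 50 and 46 counts in lung young and 37, 41 and 42 in lung old, with an interval of -0.48 to 0.53. Nrg1, with 116 to 162 counts per library, stood at 10.7 ± 0.348 CPM in lung young and 10.3 ± 0.9 in lung old (SD, n = 3), and its interval was -0.30 to 0.24. Btc had 2 to 15 counts per lung library, and a change of up to about 2-fold either way lay within its interval of -1.01 to 1.07. Changes of Ereg, Epgn and Btc within these intervals cannot be told from 0 at this depth.

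Of the other receptors, Erbb2 stood at 57.7 ± 2.95 CPM in lung young and 58.5 ± 3.33 in lung old, and the interval of its log2 fold change was -0.08 to 0.15 (adjusted p = 0.685, edgeR). Egfr stood at 12.9, 13.7 and 12.8 CPM in lung young and at 12.2, 16.2 and 15.9 CPM in lung old. Old replicates 2 and 3 lay above the young libraries and old replicate 1 below them. The log2 fold change of 0.19 had an interval of -0.05 to 0.43 (adjusted p = 0.228, edgeR), and without old replicate 1 it was 0.31 (adjusted p = 0.0528, edgeR). In all, 4 of the 10 members, Areg, Ereg, Hbegf and Erbb3, had lung groups that did not overlap, against 47.5% of all genes tested.

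**Figure D2:**
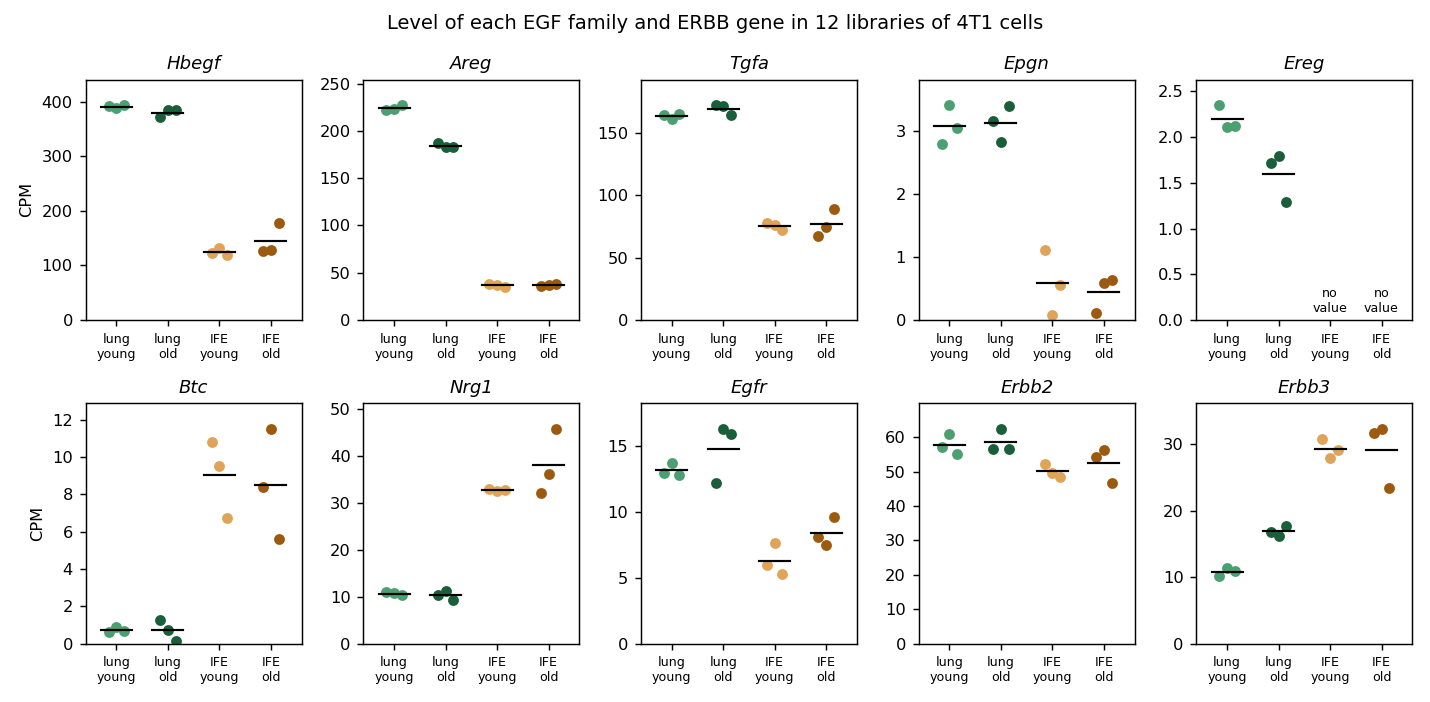
CPM (vertical axis, from 0) of each of the 10 genes in each of the 12 libraries, with 1 point a library, the 4 groups on the horizontal axis and a line at the mean of the group. Areg is lower in lung old (182.6 to 187.2 CPM) than in lung young (222.6 to 226.9 CPM), Erbb3 is higher in lung old, and Btc, Nrg1 and Erbb3 are higher in culture than in the lung.

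The second comparison asked whether IFE from old lungs changed these genes in cultured 4T1 cells relative to IFE from young lungs. None of the 8 members tested was called by edgeR, and 1, Egfr, had an unadjusted p under 0.05. DESeq2 and limma on FPKM also called 0. Over all genes, 0.0839% of 13118 were called in this comparison, 0.0534% higher and 0.0305% lower. Epgn, with 1 to 17 counts per culture library, had too few counts to be tested, and Ereg was not analysed in culture.

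Areg stood at 38.6, 37.2 and 35.0 CPM with young IFE and 35.9, 37.4 and 38.3 CPM with old IFE. The groups overlapped throughout, and the 95% interval of the log2 fold change, -0.16 to 0.17, leaves out a fall of the size seen in the lung. Erbb3 stood at 30.8, 27.9 and 29.1 CPM with young IFE and 31.7, 32.3 and 23.5 CPM with old IFE. Here too the interval, -0.24 to 0.22, leaves out the rise seen in the lung. Egfr stood at 5.94, 7.64 and 5.26 CPM with young IFE and 8.05, 7.49 and 9.60 CPM with old IFE, on 86 to 151 counts per library. Its groups overlapped through young replicate 2 and old replicate 2, and the log2 fold change was 0.43 (interval 0.06 to 0.80, unadjusted p = 0.0264, adjusted p = 0.61, edgeR).

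Culture old replicate 3 held the highest Hbegf, Nrg1, Tgfa and Egfr levels and the lowest Btc, Erbb2 and Erbb3 levels of the culture libraries. Hbegf stood at 122.6, 132.8 and 118.7 CPM with young IFE and at 126.6, 128.9 and 177.6 CPM with old IFE, so only that library lay outside the range of the young ones. Its log2 fold change was 0.21 with all libraries and 0.03 without old replicate 3. Nrg1 stood at 32.9, 32.5 and 32.7 CPM with young IFE and at 32.1, 36.1 and 45.6 CPM with old IFE, with a log2 fold change of 0.21 (adjusted p = 0.75, edgeR) and of 0.05 without that library. The differences of Hbegf and Nrg1 with old IFE thus rested mostly on this 1 library. The log2 fold change of Egfr was 0.32 without it (adjusted p = 0.527, edgeR). For Tgfa, Btc and Erbb2 the groups overlapped, and the intervals were -0.16 to 0.23, -0.67 to 0.47 and -0.09 to 0.22. No member had culture groups that did not overlap, against 13.2% of all genes tested.

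**Figure D3:**
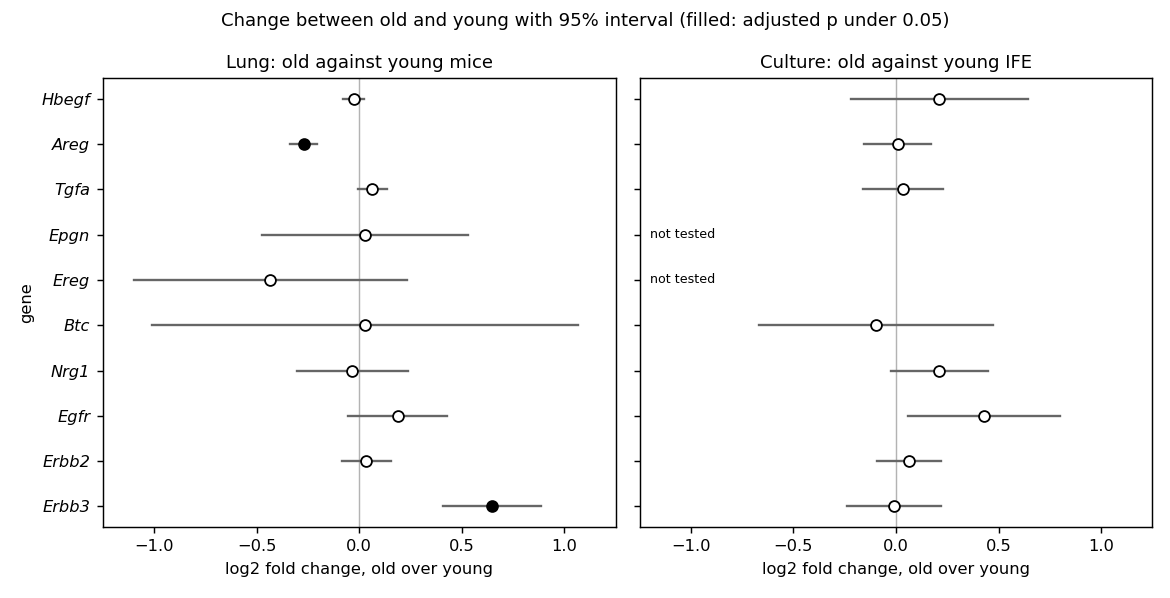
Log2 fold change of old over young (horizontal axis) for each gene (vertical axis) with its 95% interval from edgeR, in the lung (left) and in culture (right), where filled points have an adjusted p under 0.05. The lung panel has 2 filled points, Areg at -0.27 and Erbb3 at 0.65, and the culture panel has none; Epgn and Ereg were not tested in culture.

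Whether the change between old and young was the same in lung and in culture was tested as an interaction over all 12 libraries. In the lung, old and young are the ages of the host mice, and in culture those of the mice that gave the IFE. The lung libraries also differed in markers of other cells, as given above, and the part of these in the interaction was not tested. The change differed for Areg and Erbb3, the 2 genes called in the lung. Of 9 members tested, 1 had a more positive and 1 a more negative change in the lung, against 17.5% of 14318 genes called in this interaction, 9.10% more positive and 8.37% more negative. The difference of log2 fold changes was -0.28 ± 0.071 (SE) for Areg (adjusted p = 0.0046, edgeR interaction) and 0.65 ± 0.16 for Erbb3 (adjusted p = 0.00314, edgeR interaction). With each of the 12 libraries left out in turn, both were called each time, with adjusted p up to 0.0213 for Areg and 0.018 for Erbb3 (edgeR). Neither was called against a fold of 1.2 (adjusted p = 0.716 and 0.0501, edgeR). For the other 7 the interval of the difference held 0, from -0.63 to 0.14 for Hbegf, -0.58 to 0.09 for Nrg1, -0.69 to 0.19 for Egfr, -0.17 to 0.23 for Tgfa and -0.23 to 0.17 for Erbb2. The intervals of Btc and Epgn were wide, -1.17 to 1.41 and -0.84 to 1.89.

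For most members the levels differed far more between lung and culture than between ages. These differences are given as a description with no test, since the tissue, the sort, the medium, the fluorescent label, the unexplained shNT of the titles and the deposited table differ together with the setting and cannot be told apart. Of the 9 members with values in both settings, 8 had lung libraries that were all above or all below the culture libraries, against 63.6% of all 14318 genes. The exception was Erbb2, whose lung libraries ran from 55.1 to 62.3 CPM and whose culture libraries ran from 46.8 to 56.3 CPM. The 9 include Epgn, which had too few counts in culture to be tested there. The 14318 genes likewise include genes that passed the count filter through lung libraries only or culture libraries only. The filter favours a separation of the settings for such genes, so the share of members and the 63.6% are descriptive only.

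Of the 5 members that encode EGF receptor ligands and have values in both settings, Areg, Hbegf, Tgfa and Epgn were higher in the lung and Btc was lower. Areg was 6.07 times as high in lung young as in culture young libraries and 4.96 times as high in lung old as in culture old. Hbegf was 3.13 and 2.63 times as high in the lung for the same pairs, and Tgfa 2.18 and 2.20 times. Epgn was 5.32 and 7.02 times as high, on few counts in culture. The EGF receptor gene itself was 2.09 times as high in lung young as in culture young and 1.76 times as high in the old pair.

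Btc, Nrg1 and the neuregulin receptor gene Erbb3 were higher in culture. Btc stood at 10.8, 9.51 and 6.73 CPM in culture young and 8.38, 11.5 and 5.59 CPM in culture old. In lung libraries it stood at 0.606, 0.886 and 0.664 CPM (young) and 1.28, 0.76 and 0.162 CPM (old), so culture was 12.6 and 11.5 times as high. Within the chromosome 5 cluster, Areg and Btc thus had opposite levels in the 2 settings. Nrg1 was 3.06 times as high in culture young as in lung young and 3.68 times as high in the old pair. Erbb3 was 2.69 times as high in culture for young and 1.73 times for old, so its level in lung old lay between those of lung young and culture. A long non-coding RNA gene between Areg and Btc, Gm19619, was near the limit of detection, with a mean of 0.241 CPM in lung young, 0 in lung old (3 counts would be 0.207 to 0.257 CPM there), 0.213 in culture young and 0.163 in culture old.

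The order of the 4 groups can be read per gene. For Areg, lung young stood above lung old, and both stood above the culture groups, which overlapped. For Erbb3 the culture groups overlapped at the top, followed by lung old and then lung young, each apart from the next. Hbegf had the order of Areg. For Tgfa, Egfr, Epgn, Nrg1 and Btc the 2 ages overlapped within each setting, and the settings were apart. For Erbb2 every neighbouring pair of groups in the order of means overlapped, though lung and culture of the same age were apart.

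Patterns like those of the members were sought as the smallest root mean square difference of centred log2(CPM + 1) values over the 12 libraries, among 12476 other genes. The nearest to Areg were Ifitm3 (0.0755) and Kdm6b (0.0946). For Hbegf they were Mvp (0.0914) and Ehd4 (0.103), and for Tgfa Klf6 (0.0575) and Arid3a (0.0681). For Nrg1 they were Utp25 (0.104) and Nip7 (0.11), for Erbb3 Cnnm4 (0.0886) and Eif5a2 (0.0974), and for Egfr Mapkbp1 (0.141) and Col8a1 (0.144). Btc had looser neighbours, 2010204K13Rik (0.28) and Unc13b (0.292), and Erbb2, which hardly varied, had Cers5 (0.0461) and Cops4 (0.0475). No member was the near neighbour of another. The closest such pair was Hbegf and Tgfa (0.219), where Tgfa ranked 247 among the neighbours of Hbegf.

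Genes around the receptors were counted in named lists, whose larger counts of calls in the lung have to be read against the 40.0% of all genes called there. Of 5 further family members, Nrg2, a neuregulin, fell in the lung from 2.91 ± 0.761 to 1.16 ± 0.33 CPM (adjusted p = 0.000803, edgeR) on 12 to 57 counts per library. Its difference between settings (-1.47, adjusted p = 0.0422, edgeR interaction) was called in 4 of 12 fits with a library left out and not with replicate number as a block. Egf itself had 5 to 33 counts per library and did not pass (adjusted p = 0.9 in the lung and 0.969 in culture, edgeR). Nrg4 did not pass in the lung (adjusted p = 0.299, edgeR). Erbb4, the fourth receptor, had 4 counts in culture young replicate 1 and 0 in the other 5 culture libraries, where 3 counts would be 0.165 to 0.244 CPM. Values of Nrg3 and of Erbb4 in the lung were not analysed here.

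The list of sheddases and cofactors also held Timp3, an inhibitor of such proteases. Of the 9 genes of this list tested in the lung, 3 rose and 5 fell, against the 19.6% and 20.4% of all genes given above. Timp3 was among those that rose (1.55-fold, adjusted p = 0.011, edgeR). Adam17, the main protease that frees these ligands, fell from 182 ± 3.42 to 144 ± 1.44 CPM (log2 fold change -0.33, adjusted p = 4.93e-13, edgeR). Adam9 had a log2 fold change of -0.31 and Adam8, a metalloprotease of myeloid cells, of -0.66. Adam8 stood at 250 CPM in lung young and 156 in lung old, and the cultured 4T1 cells also held it. It stood at 33 CPM in culture young and 46 in culture old. Adam12, a metalloprotease of mesenchymal cells that can cut Hbegf, rose 4.53-fold (log2 fold change 2.18, adjusted p = 1.46e-30, edgeR). It stood at 6.13 CPM in lung young and 27.6 in lung old. The cultured 4T1 cells held more of it, 101 CPM in culture young and 107 in culture old. The median of the list was -0.13, against 0.00 (0.00188) for all genes. In culture 0 of 8 were called by edgeR, with 1 at an unadjusted p under 0.05. The change differed between the settings for 4 of the 9, against 17.5% of all genes. Timp3 counts among the 9, though it stood at 0.02 CPM in both culture groups and was not tested there. Its change could thus hardly be compared between the settings. The lowest p were those of Adam12 (2.09) and Adam9 (-0.29), with adjusted p of 7.41e-16 and 0.00118 (edgeR interaction). Both were also called with each library left out. The macrophage markers fell in the same lung libraries, and their part was not tested.

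Of 17 feedback inhibitors, 4 rose and 3 fell in the lung, 10 did not pass, and the median log2 fold change was -0.01. Spry1, a Sprouty inhibitor of receptor signalling, rose 1.42-fold, from 127 to 178 CPM, and Spry2 rose 1.17-fold. Lrig3, of a family of membrane proteins that regulate ERBB receptors, rose 1.7-fold from 6.08 CPM, but was not called with limma on FPKM. Dusp5, a phosphatase of nuclear ERK, fell from 268 to 234 CPM. With limma on FPKM the number of lower genes was 1 instead of 3. Dusp6, a phosphatase of cytoplasmic ERK, stood at 417 and 410 CPM (adjusted p = 0.73, edgeR) and Errfi1, an inhibitor that binds the EGF receptor kinase, stood at 1567 and 1507 CPM (adjusted p = 0.0502, edgeR). In culture 0 of 17 were called by edgeR, with 4 at an unadjusted p under 0.05. The change differed between the settings for 3 of the 17, a share near the 17.5% of all genes, among them Dusp5 (-0.48, adjusted p = 5.56e-05, edgeR interaction) and Lrig3 (0.86, adjusted p = 0.00653), the latter not called without lung old replicate 2 (adjusted p = 0.075, edgeR).

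Of 23 signal transducers, 6 rose and 4 fell in the lung. Plcg1, a phospholipase recruited by the EGF receptor, rose 1.37-fold, and the kinase gene Akt1 rose from 497 to 551 CPM. Akt2 fell to 0.83 and the adaptor gene Grb2 to 0.854 of the young level. Map2k1, a kinase of ERK, stood at 117 and 111 CPM (adjusted p = 0.225, edgeR). The median of the list was -0.02. In culture 0 of 23 were called by edgeR, with 2 at an unadjusted p under 0.05. The change differed between settings for 5 of the 23, a share near the 17.5% of all genes, with the lowest p for Plcg1 (0.35) and Akt2 (-0.26), with adjusted p of 0.00322 and 0.00629 (edgeR interaction).

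Of 13 genes known as targets of ERK, 6 rose and 3 fell in the lung. Etv4, an ETS factor, rose 1.5-fold from 104 to 154 CPM. Ier3 rose 1.21-fold and Hmga2 1.19-fold, and Myc rose from 249 to 308 CPM. Fos and Fosl1, subunits of AP-1, rose 1.08-fold and 1.07-fold. The 3 that fell were Phlda1 (0.875 of the young level), Egr1 (0.965) and Ccnd1 (0.966). The lower count was 1 without lung old replicate 1, without lung old replicate 2, without lung young replicate 1, with limma on FPKM and with no filter on low counts. The median of the list was 0.07. In culture 0 of 13 were called by edgeR, with 2 at an unadjusted p under 0.05. Fos stood at 1088 and 1167 CPM in lung young and old but at 1.88 and 1.82 CPM in culture young and old. Egr1 stood at 1293 and 1237 CPM in the lung and at 6.49 and 10.4 CPM in culture. The SE of their log2 fold changes was 0.31 and 0.33 in culture, against 0.019 for each in the lung, so culture says little about them. Myc was higher in culture, at 976 and 995 CPM. DESeq2 and limma also called 0 of each of these lists in culture. The change differed between settings for 5 of the 13, against 17.5% of all genes, with the lowest p for Etv4 (0.53, adjusted p = 4.83e-06) and Hmga2 (0.31, adjusted p = 8.26e-05, edgeR interaction).

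**Figure D4:**
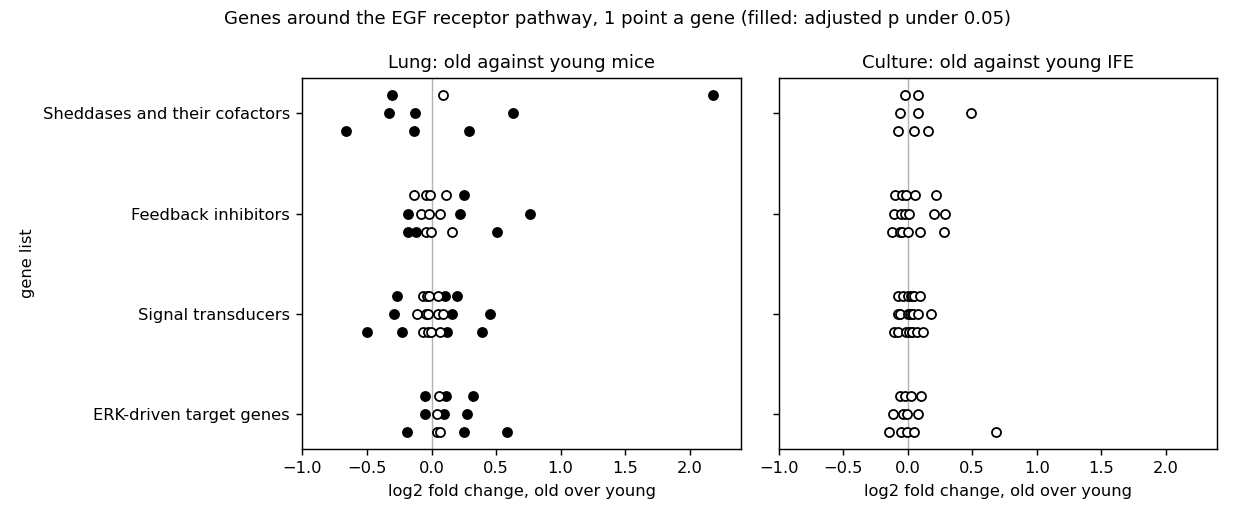
Log2 fold change of old over young (horizontal axis) for the genes of 4 lists (vertical axis), 1 point a gene, in the lung (left) and in culture (right), where filled points have an adjusted p under 0.05 in edgeR. In the lung Adam12 lies apart at 2.18, and each list holds filled points on both sides of 0; in culture no point is filled.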

How the data were processed

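The deposited tables hold raw counts per gene, size-factor normalized signal and FPKM for each setting. Per the submitters' processing notes, HISAT2 2.0.5, featureCounts 1.5.0-p3 and DESeq2 were used. The notes name a human genome build, whereas the rows are mouse genes. Multiplying the authors' normalized signal values by 1 size factor per library gave whole reads for 100% of them (within 0.001), equal to the deposited counts in 11 libraries. Counts of lung young replicate 3 were taken this way, which departs from the plan.

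Counts were filtered with edgeR's filterByExpr, scaled with TMM and tested per setting by group (edgeR 4.0.16, R 4.3.3), with p-values adjusted over all genes (Benjamini-Hochberg). An interaction contrast used all 12 libraries. Standard errors follow from the F statistic. The procedure was tested on simulated data. These had the same relative spread for every gene and no outlying library, so they do not cover a case like culture old replicate 3. Alternatives used DESeq2 1.42.0, limma 3.58.1 on log2(FPKM + 0.1) or log2(FPKM + 1), RLE scaling, no filter, a fold of 1.2, a replicate block and left-out libraries.

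Members and lists were chosen with earlier results of these data known. Named are all members, up to 4 called genes of lowest p per list in the lung and 2 in the interaction, the 2 genes nearest in pattern and the genes of the chromosome 5 cluster. The Epgn and Btc promoters, Fos, Fosl1, Egr1, Errfi1, Dusp6, Map2k1, Phlda1 and Ccnd1 were chosen after their values were seen. The labels' protocols describe both directional and non-directional libraries, so reads of overlapping antisense genes cannot be told apart.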

Additional observations from a re-analysis of the deposited data

Results flagged for a closer look

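For Areg, the change between old and young was not the same in lung and culture, with a difference of log2 fold changes of -0.28 (lung minus culture, adjusted p = 0.0046, edgeR interaction). All 3 lung old libraries lay below all 3 lung young ones, while the culture groups overlapped. The change of Erbb3 also differed, by 0.65 (adjusted p = 0.00314, edgeR interaction). All 3 lung old libraries lay above the lung young ones, and the culture groups overlapped. Neither difference was called against a fold of 1.2 (adjusted p = 0.716 for Areg and 0.0501 for Erbb3, edgeR). These were 2 of 9 members tested, a share near the 17.5% of all 14318 genes called in this interaction. The age is that of the host in the lung and of the IFE donor in culture. Markers of other cells also differed between the lung groups, and their part was not tested.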

How the results depend on the processing

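Of 384 values of members under alternatives, 381 kept their side of the threshold, and the 3 that did not were Areg in the lung and Areg and Erbb3 in the interaction, all against a fold of 1.2. That test left 1 member called in the lung and 0 in the interaction, and 1853 genes in the lung, 0 in culture and 611 in the interaction. In the lists it left 1 sheddase higher and 1 lower, 2 feedback inhibitors, 1 transducer and 1 ERK target higher, and 0 lower in each of these 3. Without lung young replicate 3, whose reads were recovered, 4906 genes were called in the lung, against 5639. In culture the count of 11 genes became 26 with DESeq2, 70 with no filter, 2 with limma on either FPKM scale, and 1 to 183 with 1 library left out (183 without old replicate 3, 8 without old replicate 1, 1 without old replicate 2, young replicate 1 or young replicate 3, and 2 without young replicate 2). With replicate number as a block it was 7, and the block changed no call of a member. Deviations of same-numbered libraries correlated by 0.00137 to 0.0134 in the lung and -0.0242 to 0.0603 in culture. Those of differently numbered libraries correlated by -0.0149 to 0.00619 in the lung and -0.0633 to 0.0694 in culture. The libraries were not treated as pairs, though this check cannot exclude a pairing by design. With limma on FPKM, Lrig3 in the lung had a log2 fold change of 0.66 (pseudocount 0.1) or 0.34 (pseudocount 1) and was not called. The cause of these shifts was not tested. Low counts widen the intervals of Btc, Epgn and Ereg in the lung, so that moderate changes of these genes could be missed.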
